A study of Mus musculus with 6 samples.

Results

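Megalin and cubilin are the endocytic receptors with which the proximal tubule takes filtered proteins back from the urine. Most genes described here code for these receptors and for proteins that anchor, internalise, recycle and fold them. Fcgrt codes instead for the heavy chain of a receptor that salvages albumin and IgG from degradation. The 8 genes (Lrp2, Cubn, Amn, Dab2, Clcn5, Fcgrt, Lrpap1 and Ocrl) were chosen by symbol for a role in protein reabsorption, and 8 of 8 were found among the 17684 genes of the expression table. All 8 passed the filter on low counts, which left 13679 genes for testing.

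The tissue was whole kidney from db/db mice, a diabetic line that lacks a working leptin receptor, on a strain that the sample labels give as C57 BLKS/L and the study's methods as C57BLKS/J. All mice were 50 weeks old. The Db group (3 libraries) received normal saline for 40 weeks and the Db + Ato10 group (3 libraries) received atorvastatin, a statin, at 10 mg/kg per day for 40 weeks. By the study's methods, statin doses were given by oral gavage on a run of consecutive days in each week, not on every day. The comparison asks which kidney transcripts differ after long statin treatment in diabetic mice. The estimated gene counts of a library summed to 13134930, 11381678 and 12426051 in Db replicates 1 to 3 and to 14578023, 14667909 and 13133241 in Db + Ato10 replicates 1 to 3.

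Some libraries stood apart from the rest or went against the study's description. The study states that its mice were male, yet 4 Y-linked genes (Ddx3y, Uty, Kdm5d and Eif2s3y) held 2 counts together in Db replicate 1 and between 1419 and 2116 in the other 5 libraries. Db + Ato10 replicate 1 had Spearman correlations of 0.834 to 0.863 with the 3 Db libraries over the tested genes. Those of Db + Ato10 replicate 2 were 0.926 to 0.946. Db + Ato10 replicate 3 had correlations of 0.978 to 0.985 with the same libraries, which is as high as the 0.980 to 0.983 among the Db libraries themselves.

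In the kidney, albumin, vitamin carriers, hormones and small plasma proteins that pass the glomerular filter bind to megalin and cubilin on the brush border of the proximal tubule. Cubilin has no membrane anchor of its own and reaches the surface with amnionless, and both receptors are drawn into clathrin-coated pits by adaptors such as Dab2. Their ligands are released in acidified endosomes and sent to lysosomes, while the receptors return to the surface.

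None of the 8 genes passed the criteria of a fold change over 1.5 and an adjusted p under 0.05 in edgeR's quasi-likelihood test, and 0 of 8 reached an unadjusted p under 0.05. The same test called 0% of all tested genes, with 5.71% lower and 11.2% higher in the Db + Ato10 group at an unadjusted p under 0.05. DESeq2 also called 0 of 8, where it called 1.29% of all tested genes lower and 5.17% higher. All 8 log2 fold changes were below 0, against 50.6% of the tested genes, and their median was -0.36 against -0.01 for all tested genes. This median was -0.19 when Db + Ato10 replicate 1 was left out and -0.58 when replicate 3 of that group was left out. Without that replicate 1, the log2 fold changes of Amn (0.081), Clcn5 (0.0056) and Fcgrt (0.041) in edgeR were above 0. Nor were the 8 genes independent, since some varied together over the libraries (Pearson correlation 0.967 for Lrp2 and Cubn) and some did not (-0.097 for Lrp2 and Fcgrt). Only Dab2 had groups that did not overlap, with every Db + Ato10 library below every Db library, which held for 11.3% of tested genes (12% were higher without overlap). A p that misses the threshold with 3 libraries per group does not show that a level was the same, and the 95% confidence intervals given with each gene show which differences these libraries allow.

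**Figure D1:**
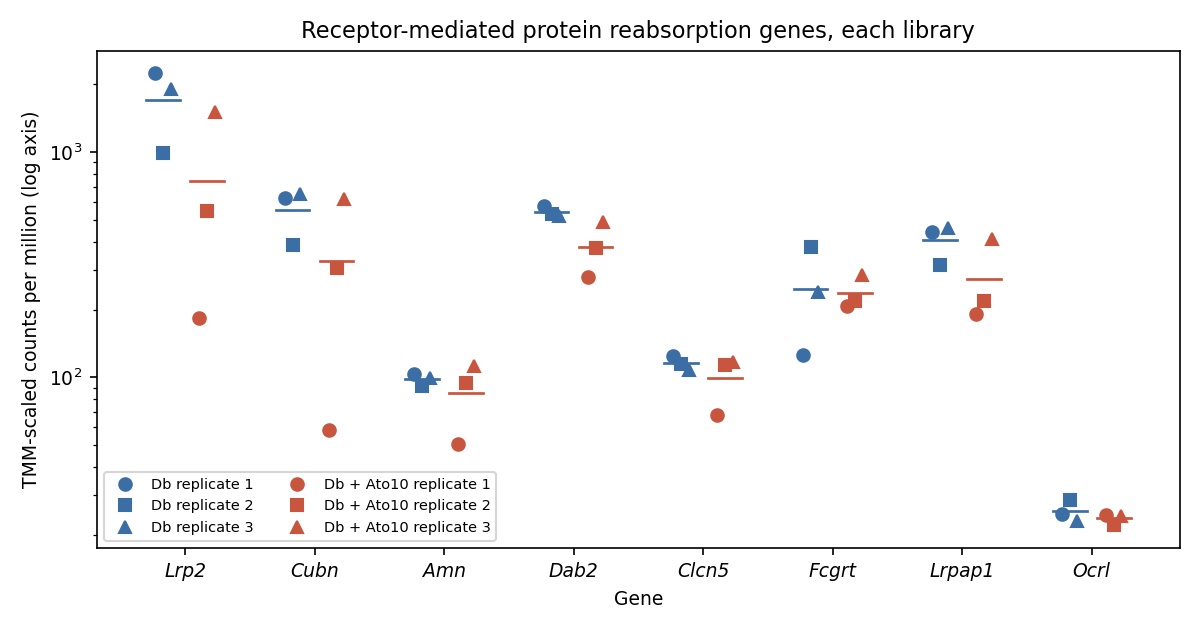
Each point is the level of a gene in 1 library, in CPM after TMM scaling on a log axis, with blue for the Db group, red for the Db + Ato10 group, a marker shape for each replicate number and a line at the group mean. Lrp2 and Cubn are spread most in the Db + Ato10 group, from 183 to 1502 and from 58.2 to 618, and Dab2 is the gene whose groups do not overlap.

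Lrp2 (gene 14725), which encodes megalin, a very large receptor of the lipoprotein receptor family, stood at 2238, 992 and 1909 CPM (counts relative to the library total, after TMM scaling) in Db replicates 1 to 3. In Db + Ato10 replicates 1 to 3 it stood at 183, 550 and 1502 CPM. Replicates 1 and 2 of the Db + Ato10 group lay below all Db libraries, at 10.7% and 32.1% of the Db mean, whereas replicate 3 lay above the lowest Db library, so the groups overlapped. The log2 fold change was -1.20 (SE 0.74, 95% interval -2.99 to 0.58), with an adjusted p of 0.421 in edgeR. It was -0.74 when Db + Ato10 replicate 1 was left out and -2.22 when replicate 3 was.

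Cubn (gene 65969), which encodes cubilin, the receptor for intrinsic factor with vitamin B12 in the gut and for albumin and transferrin in the kidney, stood at 626, 387 and 651 CPM in the Db libraries. Its values in Db + Ato10 replicates 1 to 3 were 58.2, 306 and 618 CPM. The pattern over libraries was that of Lrp2: replicate 1 held 10.5% of the Db mean, replicate 2 held 55.2% and replicate 3 lay within the Db range. Its log2 fold change of -0.76 (SE 0.74, 95% interval -2.55 to 1.02) had an adjusted p of 0.584 in edgeR. It became -0.26 with Db + Ato10 replicate 1 left out and -1.60 with replicate 3 left out, and lay between -1.31 and -1.18 with limma on FPKM or TPM.

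Amn (gene 93835), which encodes amnionless, the membrane partner that carries cubilin to the cell surface, stood at 104, 91.5 and 99.6 CPM in the Db libraries and at 50.5, 94.6 and 112 CPM in the Db + Ato10 libraries. Only Db + Ato10 replicate 1 lay below the Db range, and replicate 3 was the highest of all 6 libraries. Amn had a log2 fold change of -0.20 (SE 0.29, 95% interval -0.89 to 0.49, adjusted p 0.7195 in edgeR), which became 0.08 without Db + Ato10 replicate 1. The ratio of the receptor to its partner was thus uneven over libraries: log2 CPM of Cubn minus that of Amn was 2.59, 2.08 and 2.71 in the Db libraries and 0.20, 1.69 and 2.46 in the Db + Ato10 libraries.

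Within a library, the difference in log2 CPM between a pair of genes does not depend on the scaling. Cubn minus Amn differed by -1.01 (mean of the Db + Ato10 group minus mean of the Db group), and the groups overlapped (exact two-sided permutation test, p = 0.2, adjusted p = 0.267 over 4 pairs). Lrp2 minus Dab2 and Lrp2 minus Lrpap1 differed by -1.05 and -0.97, each with the same exact permutation p of 0.2 and adjusted p of 0.267. Lrp2 minus Cubn differed by -0.32 (exact permutation p = 0.4, adjusted p = 0.4). Leaving out Db + Ato10 replicate 1 made these differences -0.38 for Cubn minus Amn and -0.49 for Lrp2 minus Dab2. Lrp2 minus Lrpap1 became -0.41 and Lrp2 minus Cubn -0.52, which changed the order. Other libraries changed it as well. Without Db replicate 1, Cubn minus Amn was -0.94 and Lrp2 minus Dab2 -0.87. Without Db replicate 3, Lrp2 minus Lrpap1 was -0.95 and Lrp2 minus Dab2 -0.90. Without Db + Ato10 replicate 2, Cubn minus Amn was -1.13 and Lrp2 minus Dab2 -1.07. With replicate 3 of the same group left out, Cubn minus Amn differed by -1.51 and Lrp2 minus Dab2 by -1.60. Lrp2 minus Cubn was also -0.19 with Db replicate 1 left out and -0.11 with Db + Ato10 replicate 2 left out. With 3 libraries against 3 this test cannot give a p below 0.1, and no pair reached that value.

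Dab2 (gene 13132), the adaptor that links the tails of megalin and other lipoprotein receptor family members to clathrin, stood at 578, 532 and 519 CPM in the Db libraries. It stood at 278, 374 and 490 CPM in the Db + Ato10 libraries, so that the highest of these lay just below the lowest Db library. The Db libraries were close together (543 ± 30.8 CPM, SD, n = 3) and the Db + Ato10 libraries were not (381 ± 106 CPM, SD, n = 3). For Dab2 the log2 fold change was -0.51 (SE 0.24, 95% interval -1.09 to 0.07), with an adjusted p of 0.329 in edgeR and 0.260 in DESeq2. With Db + Ato10 replicate 1 left out it was -0.32.

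Clcn5 (gene 12728), the chloride and proton exchanger of early endosomes whose loss causes Dent disease with low-molecular-weight proteinuria, stood at 125, 115 and 108 CPM in the Db libraries and at 68.3, 114 and 117 CPM in the Db + Ato10 libraries. One library, Db + Ato10 replicate 1, was apart from the other 5. Its log2 fold change was -0.21 (SE 0.23, 95% interval -0.76 to 0.33, adjusted p 0.613 in edgeR) and 0.0056 without that library. Ocrl (gene 320634), the endosomal inositol phosphatase mutated in Lowe syndrome, stood between 22.1 and 28.5 CPM in all 6 libraries, from 23.0 to 28.5 CPM in the Db group and from 22.1 to 24.6 CPM in the Db + Ato10 group. Its log2 fold change of -0.11 had the narrowest interval of the 8 genes, from -0.45 to 0.24 (adjusted p 0.697 in edgeR). It was -0.015 with Db replicate 2 left out, -0.17 with Db replicate 3 left out and -0.041 with Db + Ato10 replicate 2 left out.

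Fcgrt (gene 14132) encodes the heavy chain of the neonatal Fc receptor, which salvages albumin and IgG from degradation and is also made by podocytes, endothelium and macrophages. It varied most in the Db group, at 126, 378 and 239 CPM, and stood at 207, 219 and 286 CPM in the Db + Ato10 libraries, inside that range. Fcgrt had a log2 fold change of -0.06 (SE 0.39, 95% interval -0.99 to 0.87, adjusted p 0.942 in edgeR). It was positive in 10 of 22 alternatives, among them the edgeR fits that left out Db replicate 2 (0.38) or, of the Db + Ato10 group, replicate 1 (0.041) or replicate 2 (0.013), so no direction can be given for Fcgrt.

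Lrpap1 (gene 16976), the chaperone known as RAP that keeps megalin and its relatives from binding ligands while they fold, stood at 444, 316 and 460 CPM in the Db libraries and at 192, 219 and 412 CPM in the Db + Ato10 libraries. As for Lrp2, replicates 1 and 2 of the Db + Ato10 group lay below all Db libraries and replicate 3 lay within their range. Lrpap1 had a log2 fold change of -0.57 (SE 0.34, 95% interval -1.37 to 0.24), with an adjusted p of 0.404 in edgeR. It was -0.36 when Db + Ato10 replicate 1 was left out and -0.98 when replicate 3 was.

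**Figure D2:**
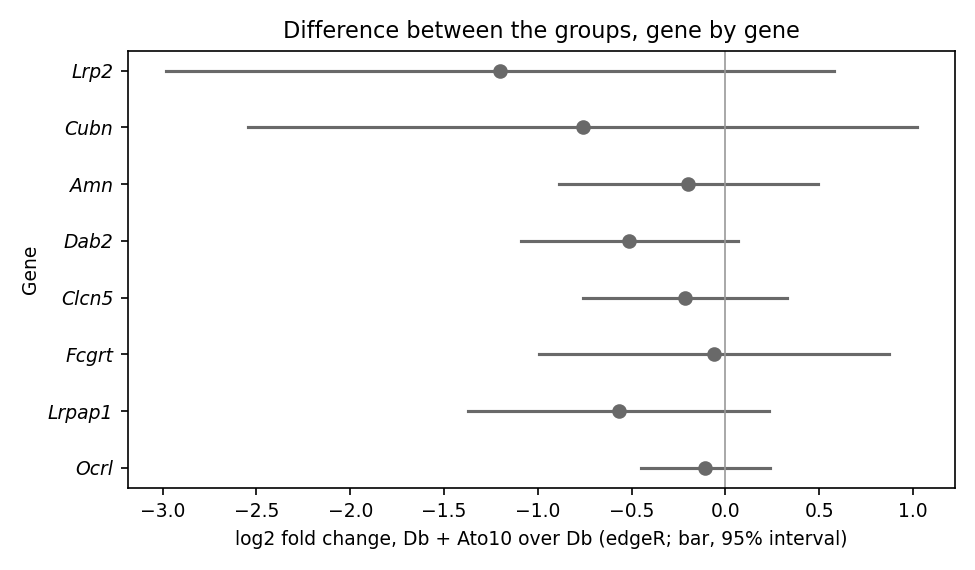
Points are log2 fold changes of the Db + Ato10 group over the Db group from edgeR and bars are 95% confidence intervals, with 3 libraries per group. All 8 intervals include 0, the widest are those of Lrp2 and Cubn, and the narrowest is that of Ocrl, from -0.45 to 0.24.

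The count of genes called depended on 1 library and on the tool. Without Db + Ato10 replicate 3, a choice made after seeing the data, DESeq2 called 3 of 8 genes lower (Lrp2, Dab2 and Lrpap1, with adjusted p of 0.000707, 0.00751 and 0.00216, which reached 0.706, 0.634 and 0.734 in other alternatives), where it called 7.5% of all tested genes lower. In the same libraries edgeR called 0 of 8, where it called 2.23% of all tested genes lower. Groups without overlap then numbered 4 of 8 (Lrp2, Cubn, Dab2 and Lrpap1), against 24.9% of tested genes lower. The same 4 genes had groups without overlap when Db replicate 2 was left out, against 18.9% of tested genes. With Db replicate 3 left out they were 2 of 8 (Dab2 and Ocrl), where the share of tested genes was not calculated. Without Db replicate 1, the library with almost no Y-linked counts, neither tool called any of the 8 genes.

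Levels of different genes were compared per length, in FPKM. In the Db group the order was Fcgrt (156 ± 82.3, SD, n = 3), Lrpap1 (146 ± 26.4), Dab2 (146 ± 4.69), Lrp2 (110 ± 39.2), Amn (63.0 ± 2.64), Cubn (49.0 ± 12.2), Clcn5 (13.4 ± 0.745) and Ocrl (4.93 ± 0.626). Fcgrt overlapped with Lrpap1 and Lrpap1 with Dab2, so these neighbours did not differ beyond their spread, and Fcgrt and Lrpap1 overlapped with Lrp2 as well. From Dab2 downward no gene overlapped with the next. In the Db + Ato10 group the mean of Fcgrt (150 ± 21.7) was the highest, and its range overlapped with that of Lrpap1 (99.3 ± 39.7) and not with that of Dab2 (102 ± 26.0). Dab2 and Lrpap1 overlapped with each other and with Lrp2, and both lay above Amn (55.3 ± 19.1). Amn, Lrp2 (47.8 ± 42.4), Cubn (28.9 ± 24.1) and Clcn5 (11.6 ± 2.93) overlapped from each to the next, and Ocrl (4.65 ± 0.285) lay below them all.

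The transcript table held 19 transcripts of the 8 genes, of which 16 were tested and 0 passed the same criteria in edgeR, as did 0% of the 30175 transcripts tested. None of the 16 reached an unadjusted p under 0.05, against 8.19% of all tested transcripts, and DESeq2 called 0 as well. Lrp2, Cubn, Amn and Lrpap1 each had 1 transcript, with coding lengths of 4660, 3623, 458 and 360 codons. Dab2 had 7 transcripts, and 5 of them could be matched to the GENCODE annotation by their RefSeq identifiers.

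Among other differences, the Dab2 transcripts differ by an alternative coding exon of 654 bases, or 218 codons, at chr15:6429296-6429949 on the plus strand of GRCm38. Transcripts with this exon code for the long form of the adaptor, whose added stretch holds binding sites for clathrin and its adaptor complex, and transcripts without it code for the short form. Transcripts without the exon stood at 547, 511 and 499 CPM in the Db libraries and at 230, 344 and 469 CPM in the Db + Ato10 libraries. Transcripts with the exon were far less abundant, at 22.7, 15.1 and 15.3 CPM in the Db libraries and at 41.0, 21.4 and 18.2 CPM in the Db + Ato10 libraries. The short form thus followed the gene, with groups that did not overlap, whereas the long form was highest in Db + Ato10 replicate 1, the library in which the short form was lowest.

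The 2 unmatched Dab2 transcripts held between 0.51% and 2.16% of the Dab2 counts of a library and are left out of the share given here. Among the matched transcripts, the share of counts that came from those with the exon was 3.99%, 2.87% and 2.98% in the Db libraries. It was 15.2%, 5.85% and 3.74% in the Db + Ato10 libraries. The groups overlapped, since Db + Ato10 replicate 3 lay below Db replicate 1. Leaving out Db + Ato10 replicate 1 took the difference between the group means from 4.97 to 1.52 percentage points. This share was chosen after its values were seen and has no test. In the edgeR fit over all transcripts, the most abundant transcript with the exon, NM_023118.5 (766 codons), had a log2 fold change of 0.86 (SE 0.39, adjusted p 0.636). The other one with it, NM_001310446.1 (745 codons), had -1.19 (SE 1.94, adjusted p 0.905). Of the transcripts without the exon, the most abundant, NM_001008702.2 (548 codons), had -0.79 (SE 0.34, adjusted p 0.620). Reads outside the exon and its junctions fit both forms, so the split was estimated by the authors' counting and not read directly.

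The sequences at the junctions show how the forms differ at this exon, read from the GENCODE transcripts (GRCm38, chromosome 15, plus strand) with 25 bases on each side and with the 654-base exon in capitals.
Start of the exon in the long form: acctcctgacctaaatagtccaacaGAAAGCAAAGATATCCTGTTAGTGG
End of the exon in the long form: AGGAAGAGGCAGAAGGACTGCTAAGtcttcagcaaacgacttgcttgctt
Junction in the short form: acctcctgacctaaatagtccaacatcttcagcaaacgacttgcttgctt
The short form joins the bases before the exon directly to those after it.

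**Figure D3:**
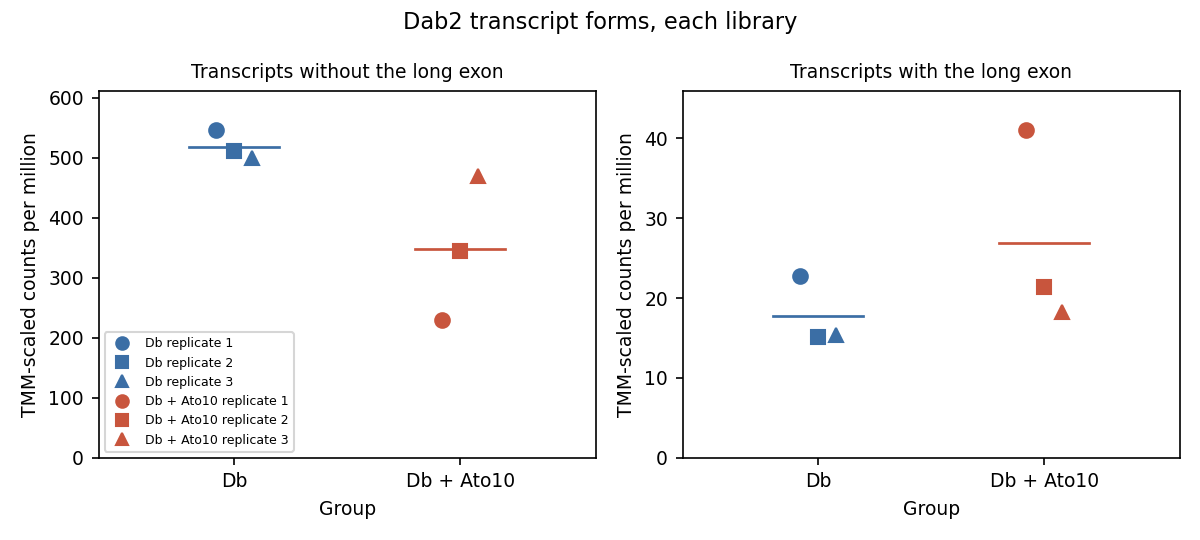
Points are the summed levels of Dab2 transcripts in each library, in CPM after TMM scaling, for 3 transcripts without the 654-base exon (left) and 2 with it (right), on axes that start at 0 and differ in scale, with lines at group means. In Db + Ato10 replicate 1 the left panel shows its lowest value, 230, and the right panel its highest, 41.0.

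Receptor levels were set beside 12 markers of the proximal tubule, the cells that carry the receptors. All 12 markers had log2 fold changes below 0, with a median of -0.76, which was -0.32 when Db + Ato10 replicate 1 was left out and -1.36 when replicate 3 was. None was called by edgeR or DESeq2, and 0 had an unadjusted p under 0.05 in edgeR. The summed level of the markers was 15928, 11372 and 14835 CPM in the Db libraries and 2203, 7470 and 13691 CPM in the Db + Ato10 libraries, and none was at 0. Miox, an inositol oxygenase and the most abundant per length, stood at 3199, 2261 and 2789 FPKM in the Db libraries and at 150, 838 and 1970 FPKM in the Db + Ato10 libraries. In whole kidney, fewer proximal tubule cells and less RNA per cell cannot be told apart.

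Relative to the mean log2 CPM of these 12 markers in the same library, Lrp2 differed by -0.53 and Cubn by -0.21 between the groups, the Db + Ato10 group being the lower. The other 6 genes differed in the opposite direction, by 0.43 for Lrpap1, 0.52 for Dab2, 0.79 for Amn, 0.81 for Clcn5, 0.97 for Ocrl and 1.13 for Fcgrt. Leaving out Db + Ato10 replicate 1 made these 0.0012 for Lrpap1, 0.079 for Dab2, 0.49 for Amn, 0.42 for Clcn5, 0.29 for Ocrl and 0.57 for Fcgrt. With replicate 3 of that group left out they were 0.67 for Lrpap1, 0.89 for Dab2, 1.25 for Clcn5 and 1.51 for Ocrl. With Db replicate 1 left out, Lrp2 differed by -0.33 and Fcgrt by 0.68. Exact two-sided permutation tests of the 8 differences gave p from 0.2 to 0.8 (adjusted p from 0.48 to 0.8), and the groups overlapped for each gene. None could pass, since with 3 libraries against 3 this test cannot give a p below 0.1. Lrp2 minus the marker mean was 1.59, 0.81 and 1.16 in the Db libraries and 0.41, 0.54 and 1.01 in the Db + Ato10 libraries. For Cubn the difference was 0.11 without Db + Ato10 replicate 1, so its direction rested on that library.

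Markers of macrophages and of injured tubule were highest in the 2 libraries where Lrp2 was lowest. Of 7 tested macrophage markers, 7 had positive log2 fold changes and DESeq2 called 6 (Adgre1, Cd68, C1qa, C1qb, C1qc and Lyz2), while edgeR called 0 and found 7 with an unadjusted p under 0.05. The summed level of the 8 listed macrophage genes was 125, 221 and 171 CPM in the Db libraries and 4420, 1168 and 250 CPM in the Db + Ato10 libraries, with Lyz2 the most abundant in FPKM and Cd163 at 0 in at least 1 library. All 5 markers of injured tubule (Havcr1, Lcn2, Vcam1, Krt20 and Sox9) were called higher by DESeq2 and 0 by edgeR, and their sum was 13.03, 95.7 and 20.7 CPM against 5498, 1434 and 436 CPM, with Lcn2 the most abundant in FPKM. Their part in the levels of the 8 reabsorption genes was not tested.

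Fibroblast markers were higher in 5 of 5, with 2 called by DESeq2 (Col1a1 and Col3a1), and summed to 95.3, 122 and 98.6 CPM in the Db libraries and 1210, 473 and 179 CPM in the Db + Ato10 libraries, with Dcn the most abundant in FPKM. Of the 5 lymphocyte markers only Cd3g was tested, and DESeq2 called it higher. These markers summed to at most 2.43 CPM in the Db libraries and to 19.6, 11.3 and 2.13 CPM in the Db + Ato10 libraries, with Ms4a1 at 0 in at least 1 library. Of 4 tested urothelial and squamous markers, 3 had positive log2 fold changes and DESeq2 called Krt5 and Krt14 higher. Upk1a, a uroplakin named after its values were seen, had a log2 fold change of -0.66 and was not called. The 7 listed summed to at most 5.64 CPM in the Db libraries and to 120, 61.8 and 20.3 CPM in the Db + Ato10 libraries. Krt5 was the most abundant of this list in FPKM and Krt14 was at 0 in Db replicates 2 and 3.

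All 6 distal nephron markers had negative log2 fold changes and DESeq2 called 3 (Slc12a1, Slc12a3 and Scnn1g), with sums of 8774, 9673 and 8545 CPM in the Db libraries and 5772, 2823 and 6467 CPM in the Db + Ato10 libraries, with Umod the most abundant in FPKM. All 5 intercalated cell markers were negative and DESeq2 called Atp6v1b1, the most abundant in FPKM, and Slc4a1, with sums of 394.5, 309 and 309 CPM against 198, 142.5 and 194 CPM. For both lists the lowest sum was in Db + Ato10 replicate 2, not in replicate 1 as for the proximal tubule markers. Podocyte markers (Podxl the most abundant in FPKM) and endothelial markers (Emcn the most abundant in FPKM) had 0 of 5 called each by either tool (0 and 1 with an unadjusted p under 0.05 in edgeR), and sums of 367 to 570 and 245 to 297 CPM in the Db group against 197 to 573 and 126 to 330 CPM in the Db + Ato10 group. No marker of these 4 lists was at 0 in any library.

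The clathrin adaptors and coat, which act next to Dab2 at the membrane, comprised 17 tested genes with 4 lower, 13 higher and a median log2 fold change of 0.11. Neither edgeR nor DESeq2 called any of them, and 2 had an unadjusted p under 0.05 in edgeR. The most abundant were Hspa8, the chaperone that uncoats vesicles, the light chain Clta and the adaptor subunit Ap2m1. Ap2m1 stood at 120, 130 and 137 FPKM in the Db libraries and at 170, 166 and 159 FPKM in the Db + Ato10 libraries without overlap (log2 fold change 0.33, adjusted p 0.320 in edgeR and 0.0329 in DESeq2, below the fold criterion). Clta ranged from 149 to 183 FPKM and from 156 to 230 FPKM, and Hspa8 from 807 to 2098 FPKM and from 789 to 1006 FPKM, in the Db and the Db + Ato10 group.

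Endosome genes, which act where ligands part from the receptors, numbered 17 tested, with 12 lower, 5 higher and a median of -0.14. Of these, 0 were called by either tool and 2 had an unadjusted p under 0.05 in edgeR. The most abundant were the small GTPases Rab7 and Rab5c and the sorting nexin Snx3, whose log2 fold changes were 0.05, 0.09 and -0.12. Among 12 lysosomal degradation genes, 4 were lower and 8 higher with a median of 0.10, and DESeq2 called 1 and edgeR 0 (4 had an unadjusted p under 0.05). Ctsd, the aspartic protease cathepsin D, was called higher by DESeq2 at a log2 fold change of 1.01 (adjusted p 0.0161; edgeR 0.239) and stood at 507, 666 and 493 FPKM in the Db libraries and at 1516, 1141 and 749 FPKM in the Db + Ato10 libraries. Ctsb, a cysteine cathepsin, did not pass in either tool (log2 fold change 0.69, adjusted p 0.287 in edgeR), and the membrane protein Lamp1 had a log2 fold change of -0.01. Both cathepsins are also made by macrophages, whose markers had their highest sum in the library with the highest Ctsd, and their part in these levels was not tested.

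The ligands that these receptors take up, and their carriers, comprised 17 listed genes, of which 16 were found and 15 tested, with 4 lower, 11 higher and a median of 0.89. DESeq2 called 3 higher and edgeR 0, with 5 higher at an unadjusted p under 0.05. The 3 were B2m, the light chain that pairs with Fcgrt (log2 fold change 1.43, adjusted p 0.0352 in DESeq2), Mt2, a metallothionein (1.78, 0.0494) and Clu, clusterin (1.09, 0.0117). B2m stood at 387, 646 and 510 FPKM in the Db libraries and at 1801, 1843 and 564.5 FPKM in the Db + Ato10 libraries, while Fcgrt did not share this pattern. Mt1, the most abundant of the list, had a log2 fold change of 1.00 and an adjusted p of 0.302 in edgeR. Alb, named after its values were seen because albumin is the best known ligand of both receptors, stood at 31.1, 19.9 and 21.8 CPM in the Db libraries and at 1.38, 1.49 and 17.6 CPM in the Db + Ato10 libraries (log2 fold change -1.84, SE 0.98, adjusted p 0.367 in edgeR).

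Genes that handle the delivered vitamins and selenium (10 listed, 9 tested) had 7 lower and 2 higher, a median of -0.23 and 0 called by either tool (1 with an unadjusted p under 0.05 in edgeR). The most abundant were Gpx3, the plasma glutathione peroxidase made by the tubule, the selenium carrier Selenop and the vitamin D hydroxylase Cyp24a1, with log2 fold changes of -0.12, -0.16 and -0.67. Cyp27b1, the hydroxylase that activates vitamin D, is named after its values were seen and went the other way, at 28.0, 35.4 and 4.36 CPM in the Db libraries and 75.4, 212.6 and 34.5 CPM in the Db + Ato10 libraries. The groups overlapped (log2 fold change 2.25, adjusted p 0.286 in edgeR and 0.0721 in DESeq2). Of 7 proximal tubule transcription factors, 5 were lower and 2 higher with a median of -0.22 (0.058 with Db + Ato10 replicate 1 left out), and 0 were called by either tool or had an unadjusted p under 0.05 in edgeR. Hnf4a, a nuclear receptor that drives proximal tubule genes, stood at 198, 170.5 and 194.5 FPKM in the Db libraries and at 50.6, 110 and 185 FPKM in the Db + Ato10 libraries (log2 fold change -0.71, adjusted p 0.443 in edgeR). Nr1h4, the next most abundant, had a log2 fold change of 0.01.

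Among 13 other members of the lipoprotein receptor family, 12 were tested and 9 were lower and 3 higher, with a median of -0.23. DESeq2 called 1, Lrp1, a receptor of macrophages and mesenchymal cells, at a log2 fold change of 1.82 (adjusted p 0.0469; edgeR 0.250), from 2.22, 3.98 and 2.58 FPKM in the Db libraries to 21.4, 6.62 and 3.68 FPKM in the Db + Ato10 libraries. Lrp10 was the most abundant, at 78.2 to 98.3 FPKM in the Db group and 92.4 to 124 FPKM in the Db + Ato10 group, followed by Sorl1 and Lrp6. Vldlr and Lrp6 were lower and Lrp8 higher without overlap between the groups, at log2 fold changes of -0.59, -0.32 and 0.65, and none of these passed in edgeR or DESeq2. Over all tested genes, 11.3% were lower and 12% higher without overlap. The others named here (Lrp3, Lrp4, Lrp5, Lrp11, Lrp12 and Sorl1) had log2 fold changes between -0.70 and -0.13. Megalin was thus the family member with the lowest log2 fold change, but its interval of -2.99 to 0.58 includes the values of the others except that of Lrp8 and Lrp1.

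The genes most like Lrp2 over the 6 libraries, by Pearson correlation of log2 CPM among 7954 genes with a mean of at least 20 CPM, were Gphn (0.998), Lars2 (0.9977), Scp2 (0.9965), Tinag (0.9964) and Mccc2 (0.9961). Those most like Dab2 were Pnpla8 (0.9996), Ndfip1 (0.9984), Nox4 (0.9983), Pgrmc1 (0.9975) and Homez (0.9965). These correlations rest on 6 points, 1 of which (Db + Ato10 replicate 1) was far from the rest, and are a description only. Tinag, an antigen of the tubular basement membrane, had CPM values of 129, 92.6 and 135 in the Db libraries and 41.2, 69.6 and 114 in the Db + Ato10 libraries. Nox4, an NADPH oxidase of the tubule, had 789, 660 and 587 CPM and 80.3, 215.5 and 546 CPM.

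Promoter windows of 300 bases (250 before to 50 after the start, RefSeq, GRCm38.p6) were found for 8 of 8 genes, with a second window for Dab2 and for Clcn5. The windows of the receptor pair are shown because Lrp2 and Cubn had the lowest log2 fold changes of the 8 genes, a choice made after their values were seen. Capitals mark GGGCGG (a GC box, held by 35.7% of 32851 promoter windows) and CAAAGT (a half-site of HNF4 or PPAR type, 14.4%), searched on both strands.
Lrp2 (chr2:69585980-69586279, minus strand): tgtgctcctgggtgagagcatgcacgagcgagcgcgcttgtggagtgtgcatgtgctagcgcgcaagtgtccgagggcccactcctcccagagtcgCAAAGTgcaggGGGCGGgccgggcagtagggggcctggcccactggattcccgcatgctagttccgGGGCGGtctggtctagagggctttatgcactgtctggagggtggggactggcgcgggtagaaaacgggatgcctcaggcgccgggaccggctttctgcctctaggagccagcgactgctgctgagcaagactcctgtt
Cubn (chr2:13491827-13492126, minus strand): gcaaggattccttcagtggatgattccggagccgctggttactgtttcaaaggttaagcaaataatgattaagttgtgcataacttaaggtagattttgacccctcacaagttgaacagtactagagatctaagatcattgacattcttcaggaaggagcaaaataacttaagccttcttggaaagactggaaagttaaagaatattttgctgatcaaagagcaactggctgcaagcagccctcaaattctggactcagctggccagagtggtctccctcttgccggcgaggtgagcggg
The Lrp2 window was richer in guanine and cytosine (65%) than the Cubn window (44.3%), with GGGCGG at 2 places and CAAAGT at 1, whereas the Cubn window held neither. Of the 10 windows of the 8 genes, 5 held GGGCGG and 4 held CAAAGT. The letters CACGTG (an E-box, 7.15% of windows) were in 1, that of Amn. None held AGGTCA (a nuclear receptor half-site, 16.3%) or TCACNCCAC (a sterol regulatory element, 1.24%). These matches describe the letters of the windows only.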

How the data were processed

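Kidney RNA was sequenced on a BGISEQ-500 in 6 libraries. The submitters' processing notes name HISAT, Bowtie2 2.2.5 and build mm9, without role or order, and the counting program is not named. The authors deposited expected counts (91.3% whole), FPKM and TPM per gene, and expected counts and FPKM per transcript. Groups came from the treatment label of each sample, which separates them, although the treatment protocol field describes atorvastatin for all 6.

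Expected counts were rounded, and genes were tested if 3 or more libraries held 10 or more counts. TMM scaling and the quasi-likelihood test of edgeR 4.0.16 were fitted over all genes, with Benjamini-Hochberg adjustment. DESeq2 1.42.0 and limma 3.58.1 (R 4.3.3) served as alternatives, and exact permutation tests used scipy 1.17.1. The code was tested on simulated data. The thresholds were the fold change over 1.5 and adjusted p under 0.05 of the study's methods, which name no test.

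The 8 genes and 17 further lists were chosen with earlier results of these data known. Of 156 list entries, 155 were found, Trf and Mut through synonyms. Named genes were the 8 members, the 3 most abundant and the called genes of each list, tested lipoprotein receptor family members and the 5 genes most like Lrp2 and Dab2. Lrp8 stands in 2 lists. Some genes that this rule gives are not used here. Whether the 3 libraries of a group came from 3 mice is not stated in the labels, so p-values measure the spread between libraries.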

Additional observations from a re-analysis of the deposited data

How the results depend on the processing

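Of 176 fits of single genes (8 genes under 22 alternatives each), 159 kept their direction and their side of the threshold, 3 passed it and 14 changed sign. The 3 were Lrp2, Dab2 and Lrpap1 in DESeq2 without Db + Ato10 replicate 3 (log2 fold changes -2.22, -0.73 and -0.97). Leaving out libraries with DESeq2 was chosen after seeing the data. Over all alternatives the adjusted p ranged from 0.000707 to 0.706 for Lrp2, from 0.00751 to 0.634 for Dab2 and from 0.00216 to 0.734 for Lrpap1. Among the 8 genes, 0 to 3 passed the criteria when 1 library was left out, and 0 passed in every other alternative. The number with groups that did not overlap went from 1 to between 1 and 4, and their median log2 fold change lay between -0.58 and -0.19. Transcripts that passed numbered 0 in DESeq2 on all libraries, with the replicate number as a block and in the edgeR fits with 1 library left out. The other alternatives were not run on transcripts, among them DESeq2 with a library left out, the setting in which genes passed.

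Fcgrt had a log2 fold change of 0.083 with limma on log2(FPKM + 1), with or without the filter on low values, and 0.084 on log2(FPKM + 0.1), and between -0.37 and 0.39 with 1 library left out. The same range was -0.43 to 0.081 for Amn and -0.34 to 0.0056 for Clcn5. With the replicate number as a block, Fcgrt had 0.068, Cubn had -1.18 against -0.76, and 0 of the 8 genes and 0 of their transcripts passed, as without the block. Same-numbered libraries had deviations from their group means with correlations of -0.151, 0.0613 and 0.208.

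The median of the filtered ligands was 0.44 with limma on log2(FPKM + 1), a scale that shrinks low genes, against 0.89. With 1 library left out, the proximal tubule transcription factors ranged from -0.54 to 0.058, podocyte markers from -0.63 to 0.24 and endothelial markers from -0.42 to 0.33. The medians then ranged from 0.073 to 0.20 for the clathrin adaptors and coat, -0.23 to -0.011 for endosome, 0.014 to 0.19 for lysosomal and -0.36 to -0.16 for ligand metabolism genes, and -0.29 to -0.14 for the lipoprotein receptor family. Endothelial markers had 0.035 with library totals only. Cubn relative to the proximal tubule markers ranged from -0.38 to 0.11. The causes were not tested. Counts were low for the rarest transcripts, such as NM_001310446.1 of Dab2 with 0 in Db + Ato10 replicates 2 and 3, while at this depth each of the 8 genes had at least 285 counts in every library.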
